A study of Homo sapiens with 6 samples.

Results

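Ceramide is the lipid at the centre of sphingolipid metabolism, and the expression of 10 genes that make it or add its first sugar was compared between a breast epithelial line and its derivative selected for growth in fluvastatin. The genes encode the serine palmitoyltransferase subunits SPTLC1, SPTLC2 and SPTLC3, the ceramide synthases CERS2, CERS3, CERS5 and CERS6, the dihydroceramide desaturases DEGS1 and DEGS2, and the glucosylceramide synthase UGCG. They were found by symbol in a table of 81496 gene symbols, and all 10 were matched, with 11 probe sets among the 135750 probe sets for transcripts. Where a gene had more than 1 probe set, which was so for SPTLC1 alone, the probe set with the highest mean over the 5 arrays compared was used.

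Serine palmitoyltransferase joins serine to palmitoyl-CoA in the endoplasmic reticulum, which is the first and rate-limiting step of sphingolipid synthesis. Ceramide synthases then attach a fatty acid whose length depends on the synthase, a desaturase introduces the double bond that turns dihydroceramide into ceramide, and ceramide goes on to sphingomyelin, to glycosphingolipids through UGCG, or to sphingosine and sphingosine 1-phosphate. Sphingolipids and cholesterol lie together in the plasma membrane, and statins such as fluvastatin block the synthesis of cholesterol at HMG-CoA reductase.

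MCF10.AT1, the fluvastatin-sensitive line, is a preneoplastic line of the human MCF10A breast epithelial series, and the labels call its samples untreated although their cell type reads breast cancer. MCF10.AT1-R, the resistant line, was selected from it in fluvastatin doses raised from 1 to 20 µM. Whether fluvastatin was present when RNA was taken, and whether MCF10.AT1-R is 1 clone, are not given in the sources used here. Total RNA was profiled on Clariom D arrays, 3 biological replicates of each line, and each probe set has 1 log2 value per array by the RMA method. All samples come from 1 parental line and 1 resistant derivative, so a difference describes this pair of lines. RNA was measured in bulk, so fewer cells of a type and less RNA per cell cannot be told apart.

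The comparison used MCF10.AT1 arrays A01 and A02 and MCF10.AT1-R arrays B02, B03 and B04. The third MCF10.AT1 array, A03, was removed by the study as an outlier and is given apart: its correlation with the other arrays over all transcripts was at most 0.795, against at least 0.967 among the other 5. In limma, 620 of the 51457 probe sets that passed a filter on low and invariant values passed a false discovery rate (FDR) of 5%, or 1.2%. Higher in MCF10.AT1-R were 0.758% of the probe sets tested, and lower were 0.447%. The smallest difference called was 1.07 on the log2 scale, because limma used 1 common SD of 0.34 for all probe sets tested. The 95th percentile of the 612 negative control probe sets lay between 2.88 and 3.14 on the 5 arrays, and a value at or below it on its own array is called within the negative controls.

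The epithelial origin of the lines was checked against markers. CDH1, EPCAM, KRT8 and KRT18 lay above the negative controls on all 5 arrays, as did the 5 basal breast epithelial markers KRT5, KRT14, KRT17, TP63 and ITGB4. Several of these were also higher in MCF10.AT1-R past FDR 5%, against 0.758% of all probe sets tested. They were 4 of the 5 basal markers and 2 of the 4 epithelial ones. KRT17 was higher by 4.08 on the log2 scale and KRT14 by 2.37 (adjusted p = 3.62e-35 and 2.36e-11 from limma), and CDH1 by 1.30 and KRT8 by 1.11 (adjusted p = 0.00481 and 0.0358). Of the leukocyte markers, PTPRC lay within the negative controls on all 5 arrays, and CD68 and CD3E lay above them. Of 5 fibroblast markers, COL1A1, COL1A2 and COL3A1 lay above the controls on every array with log2 differences between the lines of 0.15, 0.13 and -0.16. The filter removed COL1A1, COL1A2 and COL3A1, and none of them passed FDR 5% in the fit without it. PDGFRB lay within the controls on all 5 arrays, and PDGFRA lay above them on 1 MCF10.AT1 array and 2 MCF10.AT1-R arrays.

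None of the 10 enzymes passed FDR 5%. The filter kept 8 of them and removed CERS2 as invariant and CERS3 as low. Both were read from a fit without the filter. With 1.2% of all probe sets called, a count of 0 among 8 is near the background and sets these genes apart in neither way. At an unadjusted p under 0.05 in limma 1 of the 8, UGCG, was counted, against 8.26% of all probe sets tested. No enzyme was called under any of the 15 other settings, each array left out included, among them limma with its trend option, which lets the SD follow the expression level and called 2.68% of the same probe sets. Under that option 3 of the 8 tested had an unadjusted p under 0.05, SPTLC2, CERS6 and DEGS1, and UGCG did not. The matching share over all probe sets was not counted, so nothing is read from the 3. Log2 differences, MCF10.AT1-R minus MCF10.AT1, ran from -0.39 for SPTLC3 to 0.47 for SPTLC2 among the 8 enzymes above the negative controls on all 5 arrays. The median over the 10 fitted differences was -0.04, beside a median of 0.01 over all transcript probe sets. For 5 of the 10 genes the 2 lines did not overlap, 3 higher and 2 lower in MCF10.AT1-R. That order was met by 23.3% of all transcript probe sets, by 26.7% of those that passed the filter and by 34.9% of those with a mean of 4 or more, among which 8 of the enzymes fall, 4 of them without overlap.

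**Figure D1:**
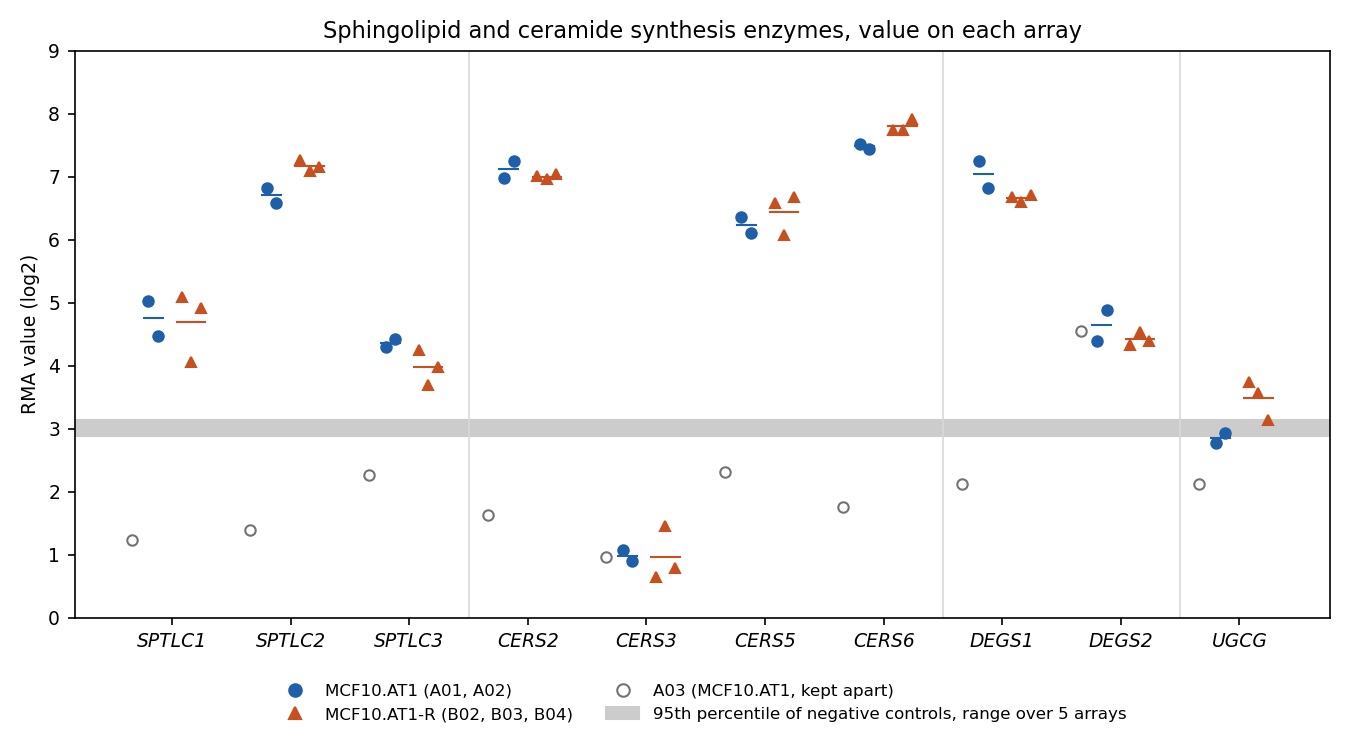
RMA values (log2, vertical axis) of the 10 enzymes on each array, with blue circles for MCF10.AT1 (A01, A02), orange triangles for MCF10.AT1-R (B02, B03, B04), short lines for line means, open grey circles for A03, and a grey band from 2.88 to 3.14 for the range over 5 arrays of the negative controls' 95th percentile. The orange triangles lie above both blue circles for SPTLC2, CERS6 and UGCG and below both for SPTLC3 and DEGS1, and heights of different genes come from different probes and are not comparable.

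Among the subunits of serine palmitoyltransferase, SPTLC2 had a higher mean in MCF10.AT1-R, SPTLC3 a lower one and SPTLC1 about the same, and none passed the test. SPTLC2, the catalytic subunit that favours palmitoyl-CoA, read 6.82 and 6.59 on the MCF10.AT1 arrays and 7.27, 7.10 and 7.16 on the MCF10.AT1-R arrays (log2 RMA values). Each resistant array was higher than each parental one. Means were 6.71 ± 0.17 (SD, n = 2) for the parental and 7.18 ± 0.09 (SD, n = 3) for the resistant line. The log2 difference of 0.47, a 1.38-fold higher level, had a 95% interval from -0.14 to 1.08 with the common SD (adjusted p = 0.768 from limma). With the trend option the interval was 0.12 to 0.82 and the adjusted p 0.185. The residual SD of SPTLC2 was 0.12, below the common SD.

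SPTLC3, the alternative catalytic subunit, which also accepts shorter acyl chains, read 4.30 and 4.43 in MCF10.AT1 and 4.25, 3.70 and 3.98 in MCF10.AT1-R. The MCF10.AT1-R arrays all lay below the MCF10.AT1 arrays, the nearest pair being 4.25 and 4.30. The log2 difference was -0.39 (95% interval -1.0 to 0.22, adjusted p = 0.816 from limma). SPTLC1, the large subunit that pairs with either catalytic subunit, read 5.03 and 4.48 in MCF10.AT1 and 5.09, 4.06 and 4.92 in MCF10.AT1-R. Its lines overlapped, and B03 was the lowest of the 5 arrays. The log2 difference was -0.06 (95% interval -0.67 to 0.55, adjusted p = 0.965 from limma), and it became 0.25 without B03 and 0.21 without A01. A second SPTLC1 probe set lay within the negative controls, between 1.08 and 1.5 on the 5 arrays. RefSeq lists 5 SPTLC1 pseudogenes, whose transcripts could share probe sequence with it.

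Of the ceramide synthases, 3 were well above the negative controls and 1 was not measurable. CERS6, which makes C14 to C16 ceramides, read 7.52 and 7.45 in MCF10.AT1 and 7.74, 7.74 and 7.92 in MCF10.AT1-R. The MCF10.AT1-R arrays all lay above the MCF10.AT1 arrays, and its residual SD of 0.09 was the lowest of the 10. The means were 7.48 ± 0.06 (SD, n = 2) and 7.80 ± 0.10 (SD, n = 3), a log2 difference of 0.32 or 1.25-fold (95% interval -0.29 to 0.93, adjusted p = 0.836 from limma). With the trend option the interval was 0.02 to 0.61 (adjusted p = 0.424).

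CERS5, the other synthase that makes mainly C16 ceramides, read 6.36 and 6.10 in MCF10.AT1 and 6.59, 6.07 and 6.68 in MCF10.AT1-R. B03 lay below both MCF10.AT1 arrays, B02 and B04 above them. The log2 difference was 0.21 (95% interval -0.40 to 0.83, adjusted p = 0.869 from limma). CERS2, the synthase of very long chain ceramides, read 6.99 and 7.26 in MCF10.AT1 and 7.01, 6.96 and 7.04 in MCF10.AT1-R. The MCF10.AT1-R arrays lay close together around the lower MCF10.AT1 array, and the log2 difference was -0.12 (95% interval -0.55 to 0.31, adjusted p = 0.941 from limma without the filter). CERS3, the synthase of ultra long chain ceramides of epidermis and testis, read 1.08 and 0.89 in MCF10.AT1 and 0.65, 1.46 and 0.78 in MCF10.AT1-R. It was within the negative controls on all 5 arrays, so no fold is given.

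The desaturases both had lower means in MCF10.AT1-R. DEGS1, the main dihydroceramide desaturase, read 7.25 and 6.83 in MCF10.AT1 and 6.68, 6.60 and 6.71 in MCF10.AT1-R. The MCF10.AT1-R arrays lay close together below both MCF10.AT1 arrays, which lay further from each other. The log2 difference was -0.38, or 77.1% of the MCF10.AT1 level (95% interval -0.99 to 0.24, adjusted p = 0.823 from limma). With the trend option the interval was -0.74 to -0.01 (adjusted p = 0.468). The difference was -0.58 without A02 and -0.17 without A01.

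DEGS2, which can also hydroxylate the sphingoid base to make phytoceramide, read 4.40 and 4.89 in MCF10.AT1 and 4.32, 4.54 and 4.40 in MCF10.AT1-R. The lines overlapped and A02 was the highest array. The log2 difference of -0.22 (95% interval -0.83 to 0.39, adjusted p = 0.866 from limma) rested on that array, since it was 0.02 without A02.

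UGCG, which adds glucose to ceramide and so opens the path to the glycosphingolipids, was above the negative controls in MCF10.AT1-R and not in MCF10.AT1. It read 2.78 and 2.92 in MCF10.AT1, within the negative controls on both arrays, whose limits were 3.14 and 3.03. In MCF10.AT1-R it read 3.74, 3.56 and 3.14, above the limits of 2.88, 2.96 and 2.95 on those arrays. The fitted log2 difference was 0.63 (95% interval 0.02 to 1.24, adjusted p = 0.575 from limma). Under limma's trend option its interval spanned 0, from -0.02 to 1.28 (adjusted p = 0.537). The MCF10.AT1-R mean stood 1.32-fold above the mean of the 2 MCF10.AT1 limits, since the MCF10.AT1 values give only an upper limit. That value depends on the limit chosen. At the 99th percentile of the negative controls UGCG lay within them on all 5 arrays. Leaving out single arrays gave log2 differences from 0.50 to 0.80.

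**Figure D2:**
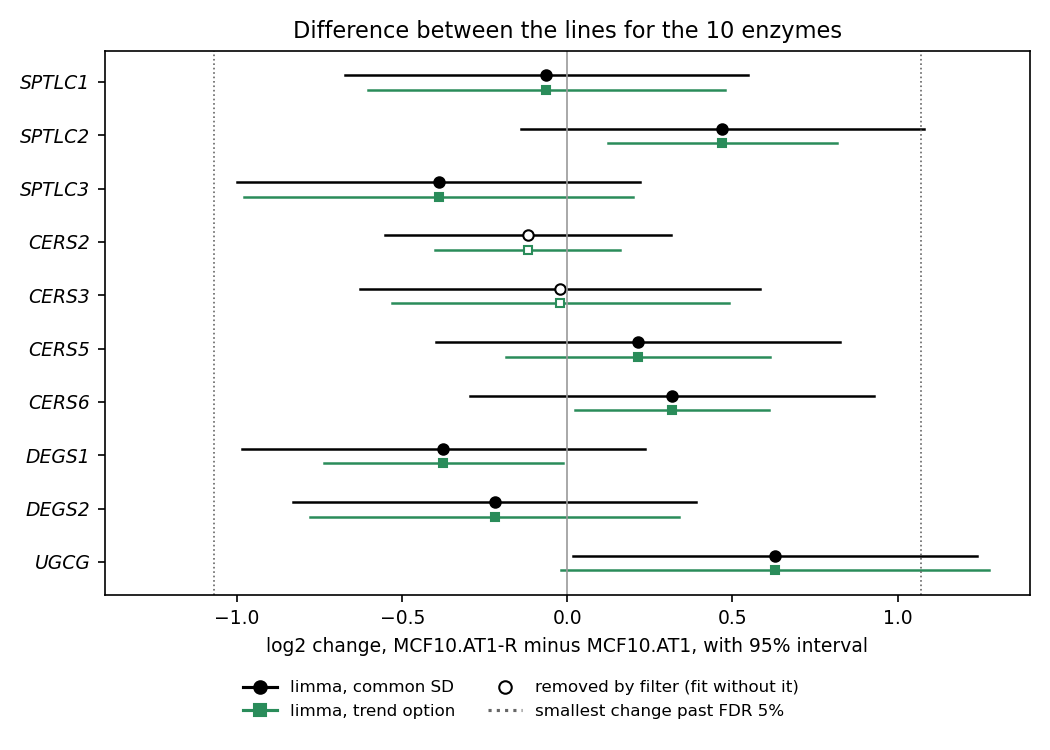
Log2 difference (MCF10.AT1-R minus MCF10.AT1, horizontal axis) of each enzyme with its 95% interval from limma using 1 SD for all probe sets (black) or the trend option (green), where open symbols mark CERS2 and CERS3, read from the fit without the filter, and dotted lines stand at 1.07 either side of 0, the smallest difference past FDR 5%. Every point lies inside the dotted lines, and the black interval spans 0 for all but UGCG, whose MCF10.AT1 values lie within the negative controls. The green interval of UGCG spans 0, and those of SPTLC2, CERS6 and DEGS1 do not.

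The intervals show what 2 against 3 arrays could resolve, given the common SD in the filtered fit rather than each gene's own spread. For 8 of the 10 enzymes the interval without the trend option lay inside 1.07 in either direction, and for SPTLC2 and UGCG its upper end, at 1.08 and 1.24, lay beyond. The 8 include CERS2 and CERS3, which were not in the filtered fit that gave the 1.07. Their standard errors without the filter were 0.19 and 0.27, against 0.31 for the other enzymes. For 8 of the 10 the residual SD was below the common SD, the others being SPTLC1 at 0.50 and CERS3 at 0.36. A difference that missed the threshold here is not shown to be absent. The direction held with each array left out in turn for 6 enzymes, SPTLC2, SPTLC3, CERS5, CERS6, DEGS1 and UGCG.

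Array A03 read far below the other arrays for most of the enzymes. It was lower than each of the 5 for 8 of the 10, with log2 differences from that lowest array of -5.69 for CERS6, -5.32 for CERS2, -5.19 for SPTLC2 and -4.47 for DEGS1. With A03 counted as MCF10.AT1 the log2 difference of DEGS1 turned to 1.26, that of CERS2 to 1.71, that of SPTLC1 to 1.11 and that of SPTLC3 to 0.31, and 3 enzymes rather than 5 had lines that did not overlap. Of all 7794 probe sets with a mean of 6 or more, 40.7% read on A03 at or above the lowest of the other arrays, and the median difference of A03 from the mean of the 5 was -2.77. DEGS2 kept its level on A03, at 4.56 within the 4.32 to 4.89 of the other arrays. Of the 8628 probe sets with a mean from 4 to under 5, 72.7% read on A03 at or above the lowest of the other arrays, so that value is common at this level. SPTLC1 and SPTLC3, with means in the same range, read 1.24 and 2.26 on A03.

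The wider pathway was described by 7 lists of sphingolipid genes, 57 genes in all, of which 56 were matched by symbol and S1PR3 was not. The filter kept 43 of the 56, and 4 passed FDR 5%, all higher in MCF10.AT1-R against 0.758% of all probe sets tested. These were SGPP2, S1PR1, ELOVL4 and ABCA12. With the trend option CERT1, PSAP and ASAH1 were called as well, making 7, and with the filter on low values alone none was, with 11 of the 43 tested at an unadjusted p under 0.05 in the filtered fit against 8.26% of all probe sets. Over the 56 genes the median log2 difference was 0.18. The lines did not overlap for 21 genes higher and 5 lower in MCF10.AT1-R, against the 23.3% of all transcript probe sets and 34.9% of those with a mean of 4 or more given above, and nothing is read from that count.

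**Figure D3:**
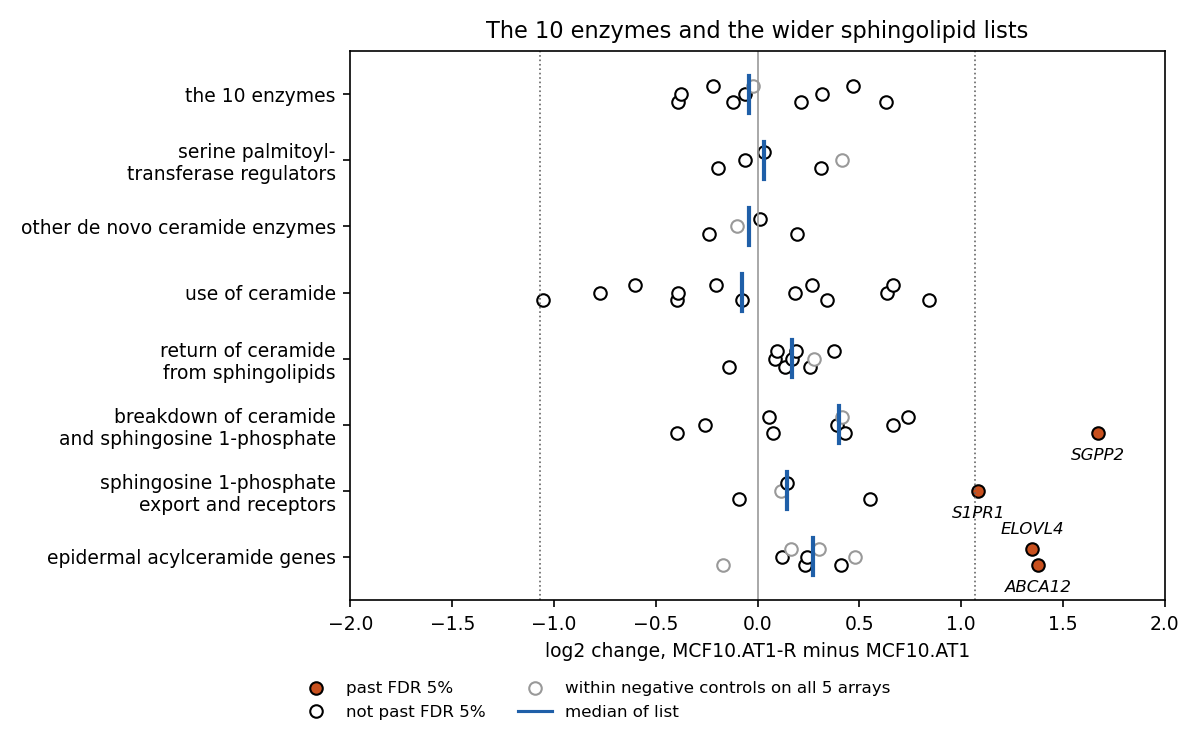
Log2 difference (MCF10.AT1-R minus MCF10.AT1, horizontal axis) of the 10 enzymes and of the matched genes of 7 sphingolipid lists, 1 circle per gene, where filled circles passed FDR 5%, grey outlines were within the negative controls on all 5 arrays, blue bars are list medians, and dotted lines stand at 1.07 either side of 0. The filled circles are SGPP2, S1PR1, ELOVL4 and ABCA12, all to the right.

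Of the 5 subunits and inhibitors that regulate serine palmitoyltransferase the filter kept 2, and neither passed FDR 5%. The median log2 difference over the 5 was 0.03. Among the ORMDL proteins, which inhibit the enzyme, ORMDL2 differed by 0.31 (adjusted p = 0.838 from limma), ORMDL3 by -0.19 and ORMDL1 by -0.06. ORMDL3 and ORMDL1 were removed by the filter and read from the fit without it. ORMDL2 was higher on all MCF10.AT1-R arrays and its adjusted p with the trend option was 0.0941. Among 4 other enzymes of de novo synthesis, none passed and all had overlapping lines. KDSR, which reduces 3-ketodihydrosphingosine after the first step, differed by -0.24 and CERS4 by 0.01, while FA2H, the fatty acid 2-hydroxylase, was within the negative controls on both MCF10.AT1 arrays.

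The 13 genes that use ceramide spread in both directions. None passed FDR 5%, their median was -0.08, and 5 of the 12 tested had an unadjusted p under 0.05 in limma, against 8.26% of all probe sets tested. ST3GAL5, which makes the ganglioside GM3 from lactosylceramide, read 3.68 and 2.97 in MCF10.AT1 and 2.30, 1.86 and 2.64 in MCF10.AT1-R. Only A01 lay above its negative control limit, so the fitted log2 difference of -1.05 (adjusted p = 0.0555 from limma) rests on values within the controls and no fold is given. B4GALT6, a lactosylceramide synthase, differed by -0.77 (adjusted p = 0.348), and SAMD8, which makes ceramide phosphoethanolamine, by 0.84 (adjusted p = 0.247), both with lines that did not overlap. CERT1, which carries ceramide to the Golgi for sphingomyelin and stands in the table under its older symbol COL4A3BP, read 6.85 and 6.61 in MCF10.AT1 and 7.40, 7.28 and 7.40 in MCF10.AT1-R. Its log2 difference was 0.63, with an adjusted p of 0.567 from limma and of 0.0122 once the SD followed the expression level.

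The 9 genes that return ceramide from sphingomyelin and glycolipids had a median of 0.17. The filter kept 4 of them, and none of those passed. PSAP, the precursor of the saposins that present lipids to lysosomal hydrolases, differed by 0.38 (adjusted p = 0.823 from limma, 0.00219 with the trend option). SMPD1, acid sphingomyelinase, differed by 0.19 and passed in neither fit.

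Breakdown of ceramide and sphingosine 1-phosphate had the highest median of the 7 lists, 0.40 over 10 genes. The filter kept 9 of them and 1 was called, against 0.758% of all probe sets tested called higher. Higher on every MCF10.AT1-R array were 6 of the 10, 1 of them, ACER1, within the negative controls on all 5 arrays. Over all transcript probe sets 23.3% did not overlap in either direction, and 34.9% of those with a mean of 4 or more, so nothing is read from the 6. SGPP2, a phosphatase that returns sphingosine 1-phosphate to sphingosine, read 3.49 and 3.68 in MCF10.AT1 and 4.89, 5.71 and 5.16 in MCF10.AT1-R. All MCF10.AT1-R arrays stood more than a log2 unit above MCF10.AT1. The log2 difference was 1.67 or 3.18-fold (standard error 0.31, adjusted p = 2.54e-05 from limma), and it passed with each array left out. Its adjusted p was 0.0875 with the filter on low values alone. SPHK1, the kinase that makes sphingosine 1-phosphate, differed by 0.74 (adjusted p = 0.397), ASAH1, acid ceramidase, by 0.66 (adjusted p = 0.519, 0.0269 with the trend option) and SGPL1, the lyase that degrades sphingosine 1-phosphate, by 0.43 (adjusted p = 0.793).

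Among the transporter and receptors of sphingosine 1-phosphate, 1 of the 5 matched passed, against 0.758% of all probe sets tested called higher. The median was 0.14. S1PR1, a G protein-coupled receptor, read 3.45 and 3.99 in MCF10.AT1 and 4.56, 4.95 and 4.90 in MCF10.AT1-R. The lines did not overlap, and the log2 difference of 1.09 or 2.12-fold was just past the threshold (standard error 0.31, adjusted p = 0.0431 from limma). It no longer passed without A01 (log2 difference 0.82, adjusted p = 0.773), A02 (1.35, 0.127), B03 (1.01, 0.115) or B04 (1.04, 0.148). S1PR2 differed by 0.55 and SPNS2, the exporter, by -0.09, and S1PR5 was within the negative controls on both MCF10.AT1 arrays, none of them past FDR 5%.

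Of the 10 genes of epidermal acylceramide synthesis and transport the filter kept 7. Of those 2 passed, against 0.758% of all probe sets tested called higher. The median log2 difference over the 10 was 0.27. ABCA12, which loads glucosylceramides into lamellar granules, read 5.50 and 5.17 in MCF10.AT1 and 6.83, 6.56 and 6.75 in MCF10.AT1-R, a log2 difference of 1.38 or 2.6-fold (standard error 0.31, adjusted p = 0.00178 from limma). ELOVL4, the elongase that makes the ultra long acyl chains used by CERS3, read 3.42 and 4.01 in MCF10.AT1 and 5.12, 4.49 and 5.58 in MCF10.AT1-R, a log2 difference of 1.35 or 2.55-fold (standard error 0.31, adjusted p = 0.00259 from limma). Neither gene's lines overlapped. ABCA12 did not pass without A02 (1.22, adjusted p = 0.256), and ELOVL4 did not pass without A01 (1.05, adjusted p = 0.455) or without B04 (1.09, adjusted p = 0.106).

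Of the 10 genes of that list, 4 were within the negative controls on all 5 arrays, as was CERS3 among the enzymes. ALOXE3, an epidermal lipoxygenase, was within them on both MCF10.AT1 arrays and did not pass. ELOVL1, a very long chain elongase, differed by 0.24 and SLC27A4, an acyl-CoA synthetase, by 0.23, both above the controls on every array. ELOVL1 did not pass FDR 5%, and SLC27A4 was removed by the filter and did not pass in the fit without it. The filter kept 4 of 8 markers of cornifying keratinocytes, the cells in which acylceramides are made. Of those 4, 2 passed FDR 5%, against 0.758% of all probe sets tested called higher. KRT1 was higher by 1.10 and CDSN by 1.14 (adjusted p = 0.0366 and 0.0269 from limma), and neither passed with the filter on low values alone (adjusted p = 0.0966 and 0.199). Higher on every MCF10.AT1-R array were 5 of the 8, DSC1 among them. Lines did not overlap, in either direction, for 23.3% of all transcript probe sets and 34.9% of those with a mean of 4 or more. Nothing is read from that count. The sum of the 8 log2 values, part of them within the negative controls, ran from 21.7 to 21.9 in MCF10.AT1 and from 24.97 to 26.4 in MCF10.AT1-R. That sum adds different probes and has no background beside it, so nothing is read from it. LOR, FLG and CASP14 had lower means in MCF10.AT1-R, with log2 differences of -0.14, -0.22 and -0.23. FLG, DSC1 and CASP14 were within the negative controls on all 5 arrays and LOR on all but 1. The part of these markers in the differences of ABCA12 and ELOVL4 was not tested.

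**Figure D4:**
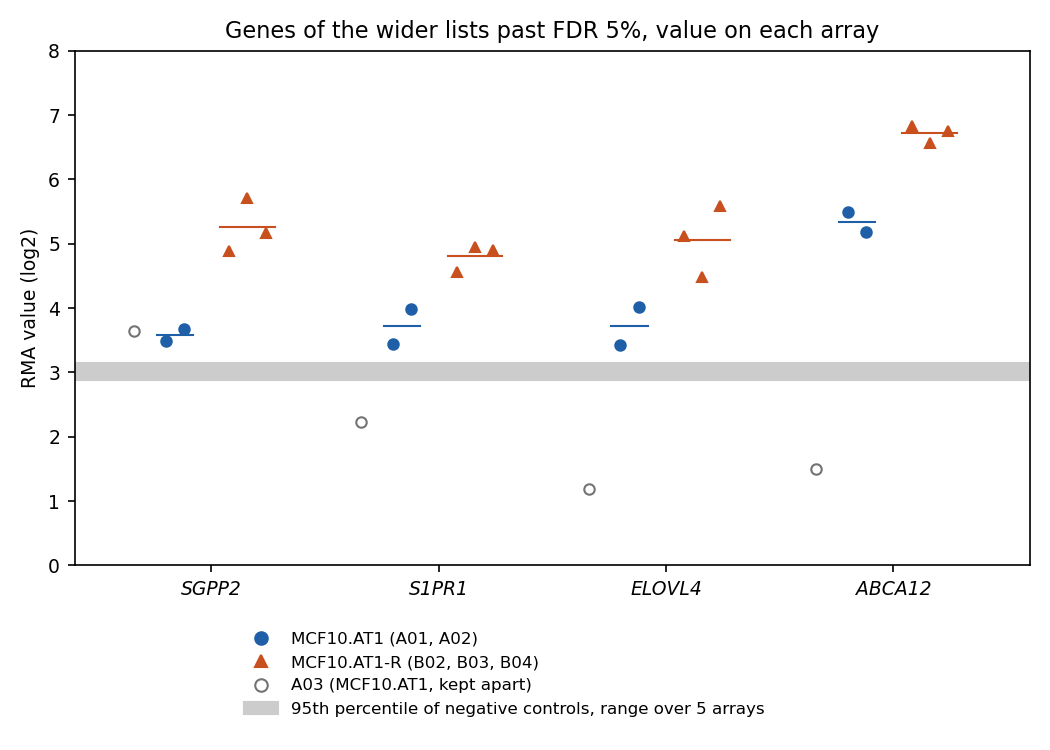
RMA values (log2, vertical axis) of the 4 genes of the wider lists past FDR 5% on each array, with blue circles for MCF10.AT1 (A01, A02), orange triangles for MCF10.AT1-R (B02, B03, B04), short lines for line means, open grey circles for A03 and a grey band for the negative control range. Every orange triangle lies above both blue circles of its gene, and SGPP2 alone of the 4 reads on A03 (3.64) as on A01 and A02.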

How the data were processed

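The authors made the deposited log2 values from Clariom D arrays with RMA, which corrects background, quantile-normalizes and summarises probes, in the Bioconductor packages affy and oligo, over all 6 arrays and with no filter. Of 138745 rows, 2995 are control probe sets and were not compared. Array names carry no replicate number. The authors' principal component plot marks A arrays as sensitive and B arrays as resistant.

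A filter kept probe sets with a mean over the 5 arrays higher than the median of all (1.88) and an SD outside the lowest 25% (0.18). These limits are those of an earlier analysis of these data, since the methods name none. The SD of the filter was taken over all 5 arrays together, so a difference between the lines adds to it. SPTLC2 and CERS6 had residual SDs of 0.12 and 0.09, below the limit, and SDs over the 5 arrays of 0.28 and 0.19. Shares of the probe sets tested are shares of that filtered set. The lines were compared with limma 3.58.1 (lmFit, eBayes) under R 4.3.3 at FDR 5%, adjusted over all 51457 probe sets by the Benjamini-Hochberg method, after a check on simulated data. Without the trend option, p-values of the filtered fit set a difference against the common SD of 0.34. They do not use a gene's own spread between arrays, such as the residual SD of 0.09 for CERS6 or 0.50 for SPTLC1. The common SD was pooled over the probe sets tested, and the fit had 154371 degrees of freedom. Very small p-values rest on that pooling. The number of arrays limits the precision, and an exact two-sided permutation of 2 against 3 arrays cannot go below p = 0.2. Members and lists were chosen with earlier results of these data known. Named in the text are all 10 enzymes and, of each list, genes past FDR 5% and up to 3 further ones with the largest absolute log2 difference that were not within the negative controls on all 5 arrays. CERT1 and ACER1 were named after their values were seen. Some list members are counted and not reported here as single genes. The alternatives were A03 added, each array left out, array weights, filters, the trend option, other normalizations, probe sets averaged, FDR 10% and the 99th percentile of negative controls. The files name no genome build for these values, so no coordinates are printed. Other experiments of the study were not analysed here.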

Additional observations from a re-analysis of the deposited data

How the results depend on the processing

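No enzyme passed FDR 5% under any alternative. The filters, the trend option and FDR 10% leave the difference of the line means as it is, so they could not change a direction. Averaging could alter SPTLC1 alone, the enzyme with 2 probe sets, and gave it -0.14. Array weights and other normalizations changed no direction except that of SPTLC1, whose log2 difference was 0.020 with array weights. With A03 added the log2 difference turned for SPTLC1 (1.11), SPTLC3 (0.31), CERS2 (1.71) and DEGS1 (1.26), and 3 enzymes had lines that did not overlap. With single arrays left out it ran from -0.34 to 0.25 for SPTLC1, above 0 without A01 (0.21) or B03 (0.25), from -0.25 to 0.015 for CERS2, above 0 without A02, from -0.27 to 0.14 for CERS3, above 0 without A01 (0.07), B02 (0.14) or B04 (0.07), and from -0.47 to 0.024 for DEGS2, above 0 without A02. The count of enzymes whose lines did not overlap was 5 to 7 with single arrays left out. Of the wider lists, 4 genes passed in limma with the main settings, and 0 with A03 added, no filter or a level filter alone. Passing were 7 with the trend option, 5 at FDR 10%, and 3 to 4 with 1 MCF10.AT1-R array left out. ST3GAL5, lower in MCF10.AT1-R, was called at FDR 10%, and without B04 it passed beside SGPP2 and ABCA12. Of all probe sets 620 passed, against 26 with A03 added, 177 with no filter, 182 when filtered on level alone, 1377 under the trend option and 1086 under the trend option after filtering on level alone, a combination chosen after seeing the data. Leaving out arrays gave 271 (A02) to 595 (B03), and 314 without A01, where the spread of a lone MCF10.AT1 array is taken from the other line. At the 99th percentile of the negative controls 2 enzymes rather than 1 lay within them on all 5 arrays, CERS3 and UGCG. No paired analysis was possible because the array names carry no replicate number of the labels.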
